A study of Homo sapiens with 16 samples.

Results

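Cohesin and acetylated chromatin were compared within TC-71, an established cell line of Ewing sarcoma, a tumour of bone and soft tissue in which EWSR1 is commonly fused to an ETS factor gene. The regions were chosen by antibody and chromosome, as the distinct SMC1 intervals and H3K27ac domains listed for TC-71 on chromosomes 1 to 22 and X. These are 18264 SMC1 intervals and 26334 H3K27ac domains, together 44598 of the 114213 regions in the 6 lists of the series. The labels give TC-71 as taken post-chemotherapy and name no treatment, genotype or engineered change for the cells. Each list stands for 2 immunoprecipitated samples, with TC-71 input as the control, so 6 samples lie behind the comparison. The labels do not say whether paired samples came from separate cultures. With 1 list per antibody there was no spread between replicates and no test between sample groups could be run. Shares, densities and medians carry exact 95% intervals that cover counting error only, and neighbouring regions are not independent.

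SMC1 is an ATPase subunit of cohesin, the ring complex that extrudes chromatin loops and holds sister chromatids together. Cohesin collects at sites of the insulator protein CTCF, which halts extrusion, and is also found at active promoters and enhancers. H3K27ac is the acetylation of histone H3 at lysine 27 by CBP and p300, and marks active promoters and enhancers. A narrow peak has a summit, the base with the highest signal, whereas a broad domain has only a start and an end. Both lists rank regions by −log10 q, the authors' significance of a peak after adjustment, and give a fold enrichment over the input background.

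The lists differ in shape. SMC1 intervals had a median width of 186 bp (quartiles 155 and 224) and covered 3.59 Mb, while domains had a median width of 1146 bp (quartiles 567 and 2056), reached 48417 bp and covered 42.7 Mb. Domains took up 1.41% of the 3036 Mb of chromosome length, assembly gaps included. Width and −log10 q go together in both lists, with Spearman correlations of 0.636 over SMC1 intervals and 0.646 over domains, which is a description over regions called from the same libraries. Overlap by rank and by width was therefore also read with the other held within classes.

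The first question was how often a cohesin site lay in acetylated chromatin, and which sites these were. Most did not: 2484 of 18264 SMC1 intervals (13.6%, interval 13.1 to 14.1%) shared at least 1 bp with a domain. Of all intervals, 2021 (11.1%) lay wholly inside a domain, and 463 (2.54%, 2.31 to 2.77%) crossed an edge. Among the crossing ones, 400 had their summit outside the domain. SMC1 intervals that met a domain had a median fold enrichment of 5.50 and a median −log10 q of 12.0, against 6.27 and 14.0 for those that met none, although they were wider, with medians of 198 and 184 bp.

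By rank, the weakest cohesin sites stood apart from the rest. In the lowest decile of −log10 q (up to 5.67) 24.5% of SMC1 intervals met a domain (22.6 to 26.6%), and in the next 15.0% (13.4 to 16.7%). From the third decile to the highest, shares stayed between 11.1% and 13.4%. The highest decile gave 11.1% (9.65 to 12.6%). This level stretch was seen only for overlap of the interval ranked by −log10 q. The summit base lay inside a domain in 11.7% of the third decile and 7.44% of the highest. With deciles of fold enrichment, 15.4% of intervals in the third and 8.54% in the highest met a domain. Neither series fell at every step. By width the order ran the other way. Shares lay between 10.4% and 12.5% up to the seventh decile and reached 24.6% (22.7 to 26.7%) in the widest, with 268 to 929 bp. Judged by the summit alone, which has no width, the order was the same: the summit base alone lay inside a domain in 18.9% of the widest and 10.5% of the narrowest decile. With only peaks of −log10 q of 5 or more in both lists, the lowest rank decile stood at 14.2%, the highest at 8.71% and the narrowest width decile at 7.24%.

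**Figure D1:**
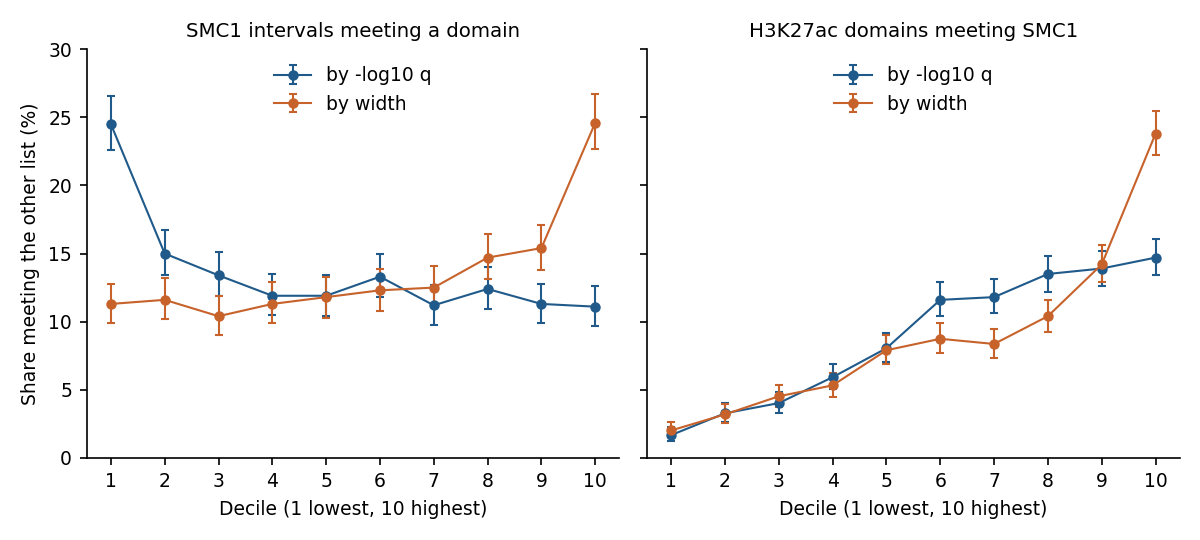
Share of TC-71 SMC1 intervals meeting an H3K27ac domain (left) and of domains meeting an SMC1 interval (right), by decile of −log10 q (blue) and of width (orange); bars are exact 95% intervals. On the left the lowest rank decile (24.5%) and the widest decile (24.6%) stand above the others, and on the right shares are higher at higher rank and width, up to 14.7% and 23.8%.

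Rank and width were then read together. Weak but wide intervals met a domain most often, at 39.7% (34.6 to 44.9%) of the 368 in the lowest rank quartile and widest width quartile. Strong and wide ones did so in 14.4% (13.1 to 15.8%) of 2662 cases. Weak and narrow ones met a domain in 14.2% (12.9 to 15.6%) of 2518. In the third rank quartile the narrowest intervals reached 3.99% (2.30 to 6.40%) of 401. When each rank decile was split by its own widths, the share was 7.86% (7.01 to 8.78%) in the narrowest class and 23.6% in the widest class of about equal size. The difference between these classes was seen within every rank quartile, from 12.5% against 30.8% in the lowest to 5.11% against 20.5% in the highest.

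**Figure D2:**
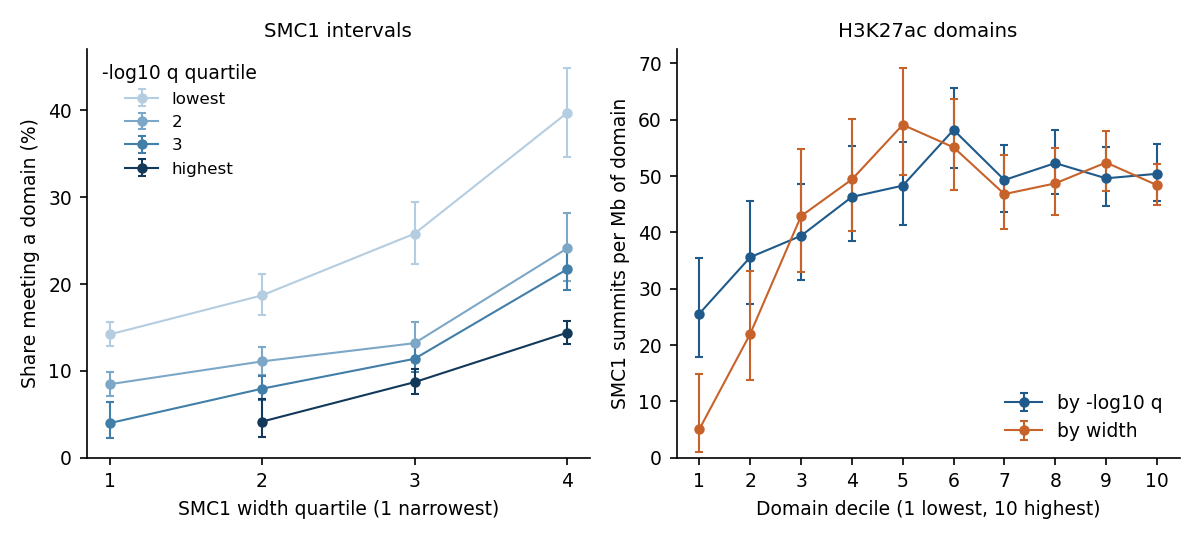
Left, share of SMC1 intervals meeting a domain by width quartile, with a line for each −log10 q quartile; the class of 5 narrow, high-ranked intervals is not drawn. Right, SMC1 summits per Mb of domain by domain decile; bars are exact 95% intervals. The weakest, widest SMC1 class lies at 39.7%, and density in domains stays between 46.8 and 59.1 per Mb from the fifth width decile on.

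The second question was the reverse, how many acetylated domains carried cohesin. Here 2327 of 26334 domains (8.84%, 8.50 to 9.19%) met an SMC1 interval, and 1955 (7.42%, 7.11 to 7.75%) held an SMC1 summit. Cohesin was listed at strong and broad domains more often than at weak and narrow ones. From the lowest to the highest rank decile the share was 1.67% (1.22 to 2.24%) and 14.7% (13.4 to 16.1%), and from the narrowest to the widest decile 2.01% (1.51 to 2.62%) and 23.8% (22.2 to 25.5%). Domains with SMC1 had a median width of 2018 bp and a median fold enrichment of 4.58, against 1081 bp and 3.74 for domains without. Longer domains offer more bases, so the density of summits was set beside the share. From the fifth to the highest width decile it lay between 46.8 and 59.1 summits per Mb with overlapping intervals, while in the narrowest decile (171 to 294 bp) it was 5.10 per Mb (1.05 to 14.9), from 3 summits. By rank it was 25.6 per Mb (17.9 to 35.4) in the lowest decile and 50.4 (45.5 to 55.7) in the highest. Domain widths differed between these deciles, with medians of 480 and 2365 bp. More than 200 bp inside the edge, density was 60.6 per Mb (50.1 to 72.8) in the lowest rank quartile and 57.1 (53.4 to 61.0) in the highest. Domains of the narrowest decile have no base that far inside. The low end of these shares depended on the setting: with a −log10 q of 5 or more in both lists the lowest rank decile was at 8.04% and the narrowest decile at 7.97%. Ranked by fold enrichment the lowest decile was at 4.25%, and 0.114% of the narrowest decile held a summit.

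Domains were also compared by rank at a given width. In the narrowest width quartile 1.20% (0.863 to 1.61%) of the lowest and 10.3% (8.25 to 12.8%) of the third rank quartile met SMC1. The latter were 77 domains with 11 summits inside, so most met an interval whose summit lay outside. Summit densities were 15.5 per Mb (9.36 to 24.3) and 39.5 (19.7 to 70.6), with overlapping intervals. In the second width quartile 3.93% (3.19 to 4.80%) of the lowest and 11.9% (9.57 to 14.6%) of the highest rank quartile met SMC1. Densities there were 41.8 per Mb (33.0 to 52.2) and 72.8 (52.9 to 97.7). In the third width quartile the shares were 5.54% (3.84 to 7.69%) and 9.80% (8.62 to 11.1%). Densities there were 35.5 (24.1 to 50.3) and 49.5 (42.7 to 57.1), with overlapping intervals. In the widest quartile the shares were 17.1% (10.6 to 25.4%) of the lowest and 17.7% (16.5 to 19.0%) of the highest rank quartile, and the intervals overlap. Domains with several cohesin sites were uncommon. A single summit was found in 1841 domains, 2 in 105, 3 in 7 and 6 in 2.

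The third question was where inside a domain, or how close to its edge, a cohesin summit lay. SMC1 summits were dense in the body of domains and again in a narrow strip just outside, with a dip in the last 200 bp before the edge. Summits were counted per Mb of sequence at each distance from the nearest edge, so that bins of unequal size can be compared. More than 200 bp inside, there were 59.2 per Mb (56.6 to 61.9). In the 200 bp before the edge the density was 14.7 per Mb (12.4 to 17.3). In the 300 bp beyond the edge it was 62.7 per Mb (58.9 to 66.7), and between 1 and 10 kb outside 8.29 per Mb (7.98 to 8.61). The strip outside thus held 4.26 times the density of the strip inside and 7.56 times that at 1 to 10 kb.

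**Figure D3:**
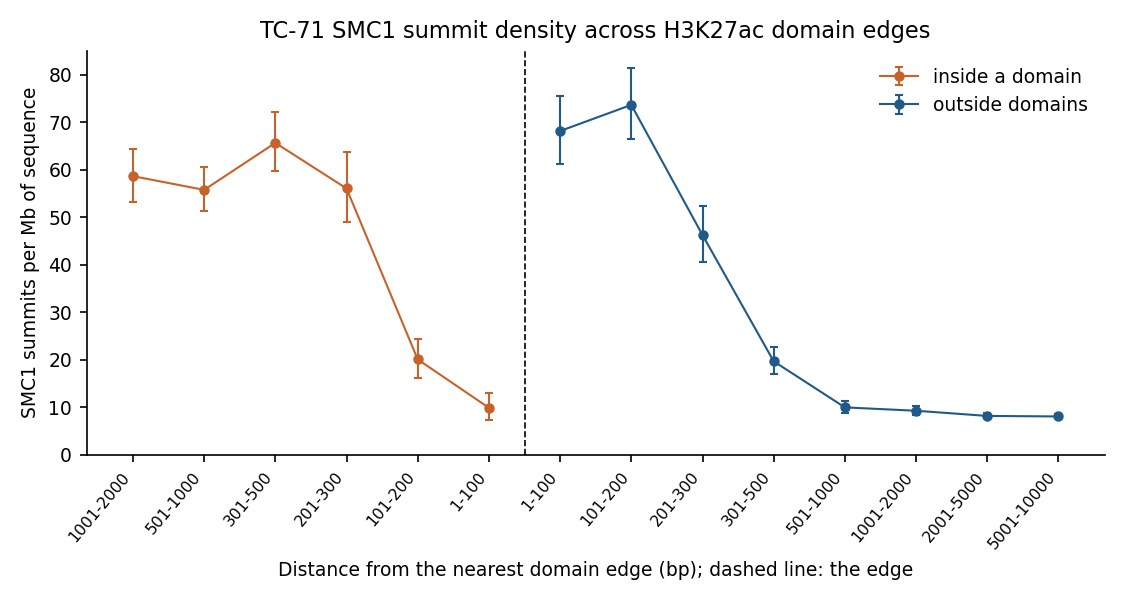
SMC1 summits per Mb of sequence by distance from the nearest H3K27ac domain edge, inside (orange) and outside (blue); the dashed line is the edge, bars are exact Poisson 95% intervals, and bins are not to scale. Density is 9.91 per Mb in the last 100 bp inside, stands at 68.2 per Mb in the first 100 bp outside and is 8.09 per Mb at 5001 to 10000 bp.

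In finer steps, the density was 65.7 per Mb (59.7 to 72.1) at 301 to 500 bp inside, 20.1 (16.2 to 24.5) at 101 to 200 bp and 9.91 (7.40 to 13.0) in the last 100 bp. Outside, it was 68.2 (61.3 to 75.6) in the first 100 bp, 73.7 (66.5 to 81.4) at 101 to 200 bp, 46.3 (40.7 to 52.5) beyond 200 up to 300 bp and 10.00 (8.76 to 11.4) beyond 500 up to 1000 bp. Left and right edges gave nearly the same values: 62.7 and 62.8 per Mb in the 300 bp outside, and 15.6 and 13.8 per Mb in the 200 bp inside. On each of the 23 chromosomes the outer strip and the domain body both exceeded the inner strip. The outer strip was denser than the body on 16 of them. Edges are those of the deposited domains, and the signal along them was not analysed here.

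The strip outside held 991 summits, at 991 of 52668 edges (1.88%), and the intervals of 400 of them (40.4%) reached across the edge. There were 14 domains with such a summit at both ends. Small domains carried most of them: 636 of the 991 (64.2%, 61.1 to 67.2%) lay beside a domain under 1 kb, and such domains were 44.8% of all. The density in the strip was 89.8 per Mb (83.0 to 97.1) beside domains under 1 kb, 49.4 (43.2 to 56.3) beside those of 1 to 2 kb, 31.2 (25.3 to 38.1) at 2 to 4 kb and 30.4 (20.6 to 43.1) beside wider ones. The inner strip was emptier in wider domains, with 18.7 per Mb (14.8 to 23.4) in those under 1 kb and 8.69 (5.15 to 13.7) in those of 2 to 4 kb. In domains of at least 4 kb it held 1 summit, a density of 1.47 per Mb (0.0372 to 8.19).

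Strong and weak cohesin sites were similarly dense beside the edge and differed in the domain body. Relative to 1 to 10 kb outside, the strip beyond the edge was 8.74 times as dense in the lowest SMC1 rank quartile and 7.84 times in the highest. The domain body was 13.0 times as dense in the lowest and 4.78 times in the highest. In absolute terms the body held 22.7 summits per Mb (21.1 to 24.4) of the lowest and 10.5 (9.40 to 11.7) of the highest quartile, while the outer strip held 15.3 (13.4 to 17.4) and 17.2 (15.2 to 19.4).

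Scaled to domain length, summits inside domains were fewest at the ends. The outermost 20% at each end held 22.8% of the 2084 inside summits (21.1 to 24.7%), where an even spread would put 40%. The middle 20% held 28.8% (26.9 to 30.8%), where an even spread would put 20%. In domains under 1 kb the share in the middle was 35.6% (29.8 to 41.7%), and in those of at least 4 kb 29.5% (25.7 to 33.6%), so a central excess was listed in wide domains too.

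**Figure D4:**
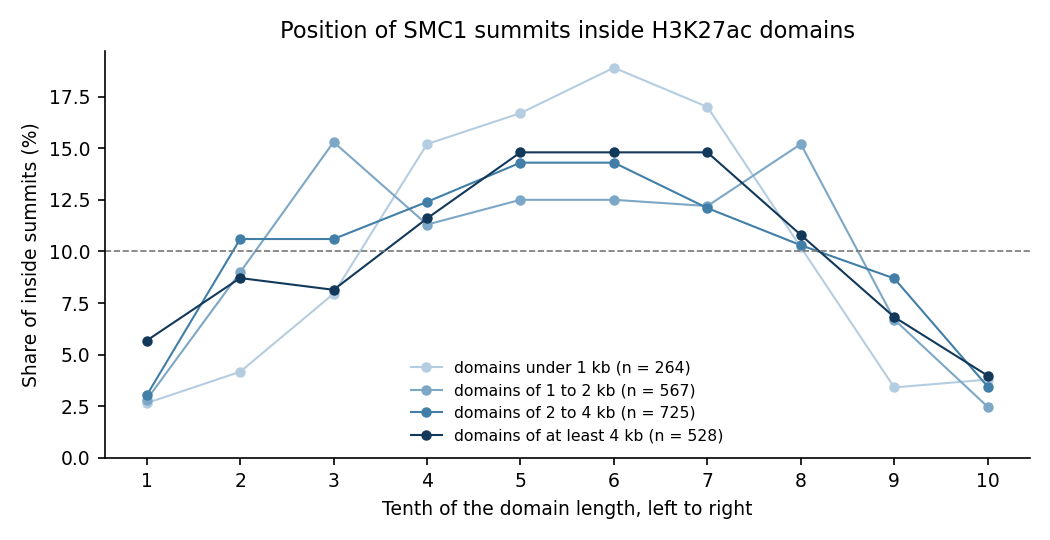
Share of inside SMC1 summits in each 10% step of the domain length, left to right, by domain width class; the dashed line at 10% is an even spread. In all 4 classes the outermost steps lie below the line.

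Single regions of high rank show these positions. The strongest SMC1 interval with its summit in a domain lay at 6q25.2 (chromosome 6, 153552215 to 153552569, hg19), with a fold enrichment of 13.5 and a −log10 q of 87.6. Its summit was 634 bp from the edge of a modest domain of 1608 bp with a fold of 3.32, and TC-32 listed SMC1 but no H3K27ac domain there. The next strongest was at 8q24.13 (chromosome 8, 126924170 to 126924545; fold 11.2) in a domain with a fold of 2.24, again without a TC-32 domain. Of the 10 strongest inside summits, all 10 were at a TC-32 SMC1 peak, 7 at a TC-32 domain and 2 at a BORIS peak. These 10 include summits more than 500 bp inside and others nearer the edge. Of all summits more than 500 bp inside, 98.9% met TC-32 SMC1 and 11.6% BORIS in the highest rank quartile. At 1 to 500 bp inside, 99.5% and 7.94% did. Over all ranks, 78.5% and 68.0% of these classes met a TC-32 domain. At 8q21.3 (chromosome 8, 90996739 to 90997071; fold 12.9) the summit was 14 bp from the edge of a 3564 bp domain, and at 14q32.31 (chromosome 14, 102990854 to 102991148; fold 10.9) it was 3457 bp inside a domain of 8345 bp with a BORIS peak.

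The 10 highest-ranked cohesin peaks within 1 kb outside a domain had folds of 14.2 to 22.5, and all 10 had SMC1 in TC-32, as did 98.5% of outer edge sites in the highest rank quartile. At 19q13.42 (chromosome 19, 56028296 to 56028595; fold 21.7) the summit lay 158 bp from a domain of 310 bp. At 11q12.2 (chromosome 11, 61666643 to 61666911; fold 20.8) it lay 166 bp from one of 901 bp, and at 12q13.13 (chromosome 12, 53278596 to 53278936; fold 16.9) 237 bp from one of 394 bp. The pair at 3p21.31 shows both positions at a single domain (chromosome 3, 50264593 to 50265837). It held a summit of −log10 q 74.7, 360 bp from its left edge, and had another, of −log10 q 84.5, at 916 bp outside the same edge.

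Among domains, the number of summits was highest at 8q24.21, where domains of 8484 bp (chromosome 8, 128744883 to 128753366) and 19526 bp (chromosome 8, 127565281 to 127584806) held 6 summits each. Domains with 3 were at 3q29 (chromosome 3, 193851399 to 193860842; fold 8.24), 4q28.1 (chromosome 4, 127387167 to 127393616; fold 9.69) and 1p36.22 (chromosome 1, 11967933 to 11971130; fold 6.75). Of the 10 domains with most summits, all 10 met a TC-32 domain, near the 96.6% of all domains with SMC1 in the highest rank quartile. The last of the 10 was 1 of 105 domains with 2 summits, taken by its −log10 q. Strong acetylation without listed cohesin was the usual case, since 14.7% of domains in the highest rank decile met SMC1. The highest-ranked domain of all, at 9q22.33 (chromosome 9, 100744382 to 100748759; fold 14.0, −log10 q 79.2), met no SMC1, and its nearest summit was 27352 bp away. At 1p35.3 (chromosome 1, 28831390 to 28838894; fold 11.4) the nearest was 5803 bp away, and at 20q11.22 (chromosome 20, 34328666 to 34331755; fold 12.6) 139050 bp.

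The 10 widest domains held few summits for their length. Together 312 kb long, they held 5 summits in all, or 16.0 per Mb (5.20 to 37.4). The density over all domains, 48.8 per Mb (46.7 to 51.0), would give 15.2 summits over that length. The widest decile as a whole had 48.4 per Mb (44.9 to 52.1). Of the 10 widest domains 4 held a summit, against 7.42% of all domains and 23.4% of the widest decile. The widest, at 6p22.2 (chromosome 6, 26118190 to 26166606), the band of the replication-dependent histone genes, spanned 48417 bp with 1 summit. Those at 13q13.1 (chromosome 13, 33740474 to 33783318) and 22q13.31 (chromosome 22, 46448249 to 46486706) spanned 42845 and 38458 bp with 0. Genes were not assigned to regions.

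The last question was how far the remaining cohesin sites lay from acetylated chromatin. Of the 16180 summits outside domains, 6.12% (5.76 to 6.51%) were within 300 bp of a domain and 25.2% (24.5 to 25.9%) within 10 kb. Most lay farther out, as did 2624 of the 2994 Mb outside domains: 58.7% were within 50 kb and 74.1% within 100 kb. Per Mb of sequence, summits were denser near domains, with 28.8 (27.3 to 30.3) within 1 kb and 8.29 (7.98 to 8.61) at 1 to 10 kb. Beyond 10 kb there were 4.61 per Mb (4.53 to 4.69), assembly gaps included. The median distance was 34862 bp (33795 to 36002), with quartiles of 9880 and 104726 bp. Beyond 1 Mb there were 112 summits (0.692%, 0.570 to 0.832%), the farthest at 5761478 bp. Summit density changed little between 1 and 20 kb, from 9.29 per Mb (8.40 to 10.2) at 1 to 2 kb to 7.79 (7.45 to 8.14) at 10 to 20 kb. It was 3.44 per Mb (3.34 to 3.55) between 100 kb and 1 Mb, where assembly gaps count as sequence.

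Strong outside sites lay somewhat closer to domains than weak ones. The median distance was 38855 bp (35986 to 41380) in the lowest SMC1 rank quartile and 30221 bp (28410 to 32062) in the highest. Distances beyond 100 kb differed: 29.9% (28.5 to 31.4%) of the lowest and 20.2% (19.0 to 21.5%) of the highest quartile lay there, whereas 6.41% (5.65 to 7.24%) and 6.49% (5.77 to 7.28%) were within 300 bp. Strong sites far from any domain were nevertheless listed. At 11q23.3 (chromosome 11, 117714769 to 117714986; fold 23.3) the nearest domain was 515055 bp away, and at 22q11.22 (chromosome 22, 23301404 to 23301696; fold 23.0) 186163 bp. All 10 of the strongest such sites were SMC1 peaks in TC-32 and 0 met a TC-32 domain, near the shares of far sites in general (98.6% in the highest rank quartile and 2.36%).

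Viewed from the domains, 23.2% (22.7 to 23.7%) had an SMC1 summit within 10 kb outside at either side, and 1.64% (1.49 to 1.80%) at both sides. Here a summit counted when it lay outside the domain in question, even if it lay inside another domain. The median distance from a domain to the nearest such summit was 30908 bp (30249 to 31549). This median hardly varied with domain rank, at 30395 bp (29110 to 31810) in the lowest quartile and 30423 bp (29385 to 31576) in the highest. The share with a summit within 10 kb at either side was 24.8% (23.8 to 25.9%) in the lowest quartile and 21.1% (20.1 to 22.1%) in the highest.

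Readouts from the other lists were then set against position. SMC1 summits were divided into a core class more than 500 bp inside a domain (1264), an inner edge class at 1 to 500 bp inside (820), an outer edge class at 1 to 500 bp outside (1193), a near class up to 10 kb (2887), an intermediate class up to 100 kb (7906) and a far class (4194). BORIS (CTCFL), a germ-line paralog of CTCF, was then considered, and the SMC1 sites that met it lay mostly in or beside domains. A TC-71 BORIS peak met 6.49% (5.19 to 7.99%) of core, 8.05% (6.28 to 10.1%) of inner edge and 6.12% (4.83 to 7.63%) of outer edge SMC1 intervals. The shares were 1.21% (0.846 to 1.68%) of near, 0.810% (0.624 to 1.03%) of intermediate and 0.525% (0.329 to 0.793%) of far ones. Of the 342 SMC1 intervals with BORIS, 221 (64.6%, 59.3 to 69.7%) lay inside a domain or within 500 bp of one, against 17.9% of all SMC1 intervals. In the lowest SMC1 rank quartile the outer edge and near shares with BORIS were 4.12% (2.15 to 7.09%) and 0.635% (0.173 to 1.62%), and in the highest 6.18% (3.86 to 9.29%) and 1.33% (0.638 to 2.43%).

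**Figure D5:**
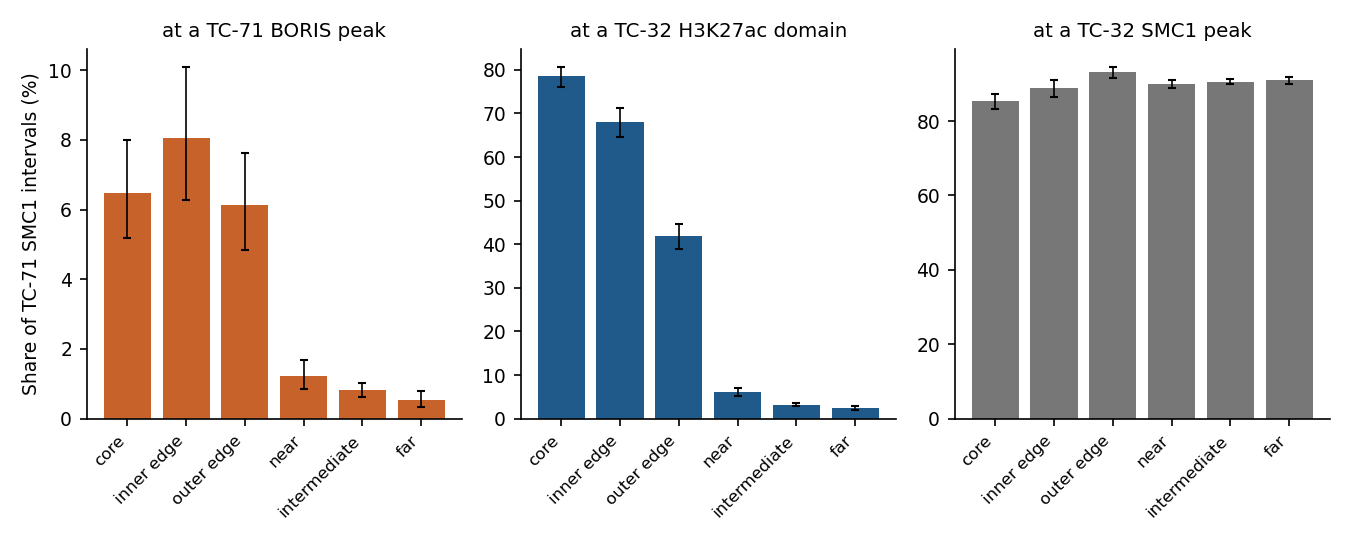
Share of TC-71 SMC1 intervals, by summit position relative to TC-71 H3K27ac domains, that met a TC-71 BORIS peak (left), a TC-32 H3K27ac domain (middle) or a TC-32 SMC1 peak (right), each on its own scale; bars are exact 95% intervals. BORIS is at 6.12% to 8.05% in the first 3 classes and at most 1.21% in the others, while TC-32 SMC1 lies between 85.3% and 93.2% throughout.

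The lists of TC-32, a line from diagnosis, gave a further view. TC-32 acetylation met 78.5% (76.1 to 80.7%) of core and 68.0% (64.7 to 71.2%) of inner edge SMC1 intervals. At the outer edge it met 41.8% (39.0 to 44.7%) of the intervals. A TC-71 domain met 33.5% (30.9 to 36.3%) of the same intervals. Their summits lie outside every TC-71 domain by definition, so only intervals reaching across an edge enter that share. TC-32 domains carry no such limit, so these shares cannot be read as a difference between the lines. By the summit, 25.0% (22.5 to 27.5%) of outer edge sites lay inside a TC-32 domain. Near sites met TC-32 acetylation in 6.06% (5.22 to 6.99%). TC-32 SMC1 met 85.3% (83.2 to 87.2%) of core, 93.2% (91.6 to 94.6%) of outer edge and 91.0% (90.1 to 91.8%) of far sites. Core sites ranked lower, with 44.4% in the lowest SMC1 rank quartile against 24.4% of outer edge sites. Within the highest rank quartile the classes ranged from 98.3% to 99.5%. Within the lowest, core sites stood at 74.2% (70.3 to 77.7%), outer edge sites at 84.9% (80.2 to 88.8%) and far sites at 82.6% (80.3 to 84.8%). Inner edge sites were at 76.3% (70.3 to 81.6%), near sites at 79.5% (76.2 to 82.6%) and intermediate sites at 77.8% (75.7 to 79.7%). The intervals of these last classes overlap that of core sites.

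The same values within TC-32, from lists called separately and 69075 regions long, are given side by side with no test. There 25.9% of SMC1 intervals met a domain, with 56.9% (55.2 to 58.6%) in the lowest and 16.1% (14.9 to 17.4%) in the highest rank decile. Summit density was 140.0 per Mb (137 to 143) in the domain body, 27.6 (24.9 to 30.5) in the 200 bp inside the edge, 80.2 (76.5 to 84.0) in the 300 bp outside and 11.3 (11.0 to 11.6) at 1 to 10 kb. Both lines thus listed a low density at the inner edge and a higher one just outside. In TC-71 the body and the outer strip had overlapping intervals when pooled, and the body was the denser of them at each domain width from 1 kb up (63.8, 58.7 and 50.5 per Mb for the classes above). The median distance of outside summits was 26230 bp (25617 to 26905) in TC-32. List length differs between the lines and was not equalised for these values.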

How the data were processed

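Chromatin of TC-71 cells was immunoprecipitated with antibodies against SMC1 and H3K27ac and sequenced beside input, per the labels' protocols. Per the submitters' processing notes, MACS2 2.1.1, deepTools 2.2.4, STAR 2.5.1b, Picard and SAMtools 1.3.1 were used with build hg19, with no role or setting named. Both samples of a group share 1 deposited list, so depth and replicate spread are unknown, and a deeper library gives a longer list. The authors deposited for each peak a score, a fold enrichment (a ratio over input background) and a −log10 q. These are the authors' values and served to rank or filter within a list. SMC1 intervals listed with several summits (18453 summits) were counted once, with the summit of highest −log10 q. Coordinates are hg19, counted from 1. Distances were counted in bases from the edge, and densities divided summits by the bases at each distance. Chromosome lengths and bands came from circlize 0.4.16. Shares have Clopper-Pearson, densities Poisson and medians order-statistic intervals. Named regions head 6 lists of 10: the strongest SMC1 inside, within 1 kb and over 100 kb from domains, and the domains with most summits, strongest without SMC1 and widest, with ties by −log10 q. Regions named from below the head of a list (8q21.3, 14q32.31, 11q12.2, 12q13.13, the 3p21.31 pair, 20q11.22 and 11q23.3) were picked after their values were seen. Regions, classes and lists were chosen with earlier results of these data known. Settings varied were a floor of 5 on −log10 q in both lists, 50% of the SMC1 interval covered, summit or midpoint positions, ranking by fold enrichment, every listed summit, merging within 1 kb and domains of at least 2 kb. Location code was tested on 4000 simulated sites with 0 wrong calls. Python 3.11.15, numpy 2.4.6, pandas 2.3.3, scipy 1.17.1, matplotlib 3.10.9 and R 4.3.3 were used. The gene and promoter tables given are of another build, so no gene or sequence was assigned.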

Additional observations from a re-analysis of the deposited data

How the results depend on the processing

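No paired analysis was possible because each pair of samples shares a single list, which also prevents dropping a replicate. Among 75 values recomputed under other settings, 29 left the 95% interval of the value reported and 46 did not. The setting that moved most values was a floor of 5 on −log10 q in both lists, with 14 of the 29. It put SMC1 intervals meeting a domain at 9.93% (highest and lowest rank decile 8.71% and 14.2%, widest and narrowest 19.1% and 7.24%). Domains meeting SMC1 were then at 11.0% (highest and lowest rank decile 12.1% and 8.04%, narrowest 7.97%). It also gave 24.9% of inside summits in the outermost 20% at each end, 42.6 summits per Mb inside, 26.3 within 1 kb outside, 17.4% of outside summits within 10 kb and a median distance of 51535 bp; fewer peaks pass by construction. With 50% of the SMC1 interval covered, 11.5% met a domain (highest rank decile 7.66%, widest 19.4%). With the summit base inside, 11.4% did (7.44% and 18.9%), as did 7.42% of domains in reverse (highest rank decile 12.9%, narrowest 0.114%). Ranking by fold enrichment gave 8.54% of the highest SMC1 decile and 4.25% of the lowest domain decile. Counting every listed summit gave 26.8% in the lowest rank and 28.0% in the widest SMC1 decile. Merging domains within 1 kb gave 9.61% of domains with SMC1, and domains of at least 2 kb had 25.5% of inside summits in the outermost parts. The lowest SMC1 rank decile met domains more often than the highest under the 5 settings run for both (floor on −log10 q, 50% coverage, summit base, fold ranking and every listed summit). The densities in the strips beside the edge stayed within their intervals under the floor of 5 (13.2 per Mb inside, 64.2 outside), merging, midpoints, every listed summit and leaving out chromosome 8, alternatives chosen after seeing the data.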

Other observations

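The density of cohesin and of acetylation differed between Giemsa bands, with no single order from light to dark. In light bands there were 7.88 SMC1 intervals per Mb (7.72 to 8.03) and 11.1 domains per Mb (10.9 to 11.3), in the palest stained bands 9.03 (8.63 to 9.44) and 12.3 (11.9 to 12.8), and in the darkest 3.12 (2.96 to 3.28) and 5.48 (5.28 to 5.69). The share of SMC1 intervals meeting a domain was 13.7% (13.1 to 14.4%) in light bands, 11.3% (9.96 to 12.8%) in the palest stained and 16.2% (14.4 to 18.1%) in the darkest. The median distance of outside summits was 29584, 26775 and 67992 bp in that order.

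Chromosomes differed in this share from 9.83% (7.90 to 12.1%) on chromosome 10 to 18.7% (16.4 to 21.2%) on chromosome 8. Domain bodies held 86.5 summits per Mb (74.0 to 101) on chromosome 8 and 84.8 (56.4 to 123) on chromosome 21, against 59.2 over all chromosomes. Chromosome 8 held 5.84% of SMC1 intervals, 8.45% of inside summits and 5.67% of domains. It held 4 of the 10 strongest inside summits and 4 of the 10 domains with most summits, of which 1 was placed by −log10 q among domains tied at 2 summits. Copy number was not analysed here. Without chromosome 8, 13.3% of SMC1 intervals met a domain and the density inside domains was 47.5 per Mb, values chosen after seeing the data. Across the 23 chromosomes the share of SMC1 meeting a domain and the share of sequence in domains had a Spearman correlation of 0.282, a description over chromosomes of the same libraries.

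Short stretches between neighbouring domains seldom held a summit, but in summits per Mb the shortest were the densest. Longer stretches offer more bases. No stretch was shorter than 685 bp. Of the 1669 under 1 kb, 65 held an SMC1 summit (3.89%, 3.02 to 4.94%), a density of 47.7 per Mb (36.8 to 60.8). Of the 5596 stretches over 100 kb, 73.4% (72.3 to 74.6%) held at least 1, at 4.69 per Mb (4.61 to 4.78).

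Domains with cohesin carried BORIS more often, at 7.39% (6.36 to 8.53%) of domains that met SMC1 and 0.529% (0.441 to 0.629%) of those that met none. These classes also differed in median width (2018 and 1081 bp) and median −log10 q (10.7 and 5.40), and the BORIS shares were not matched for either. The share of domains also acetylated in TC-32 had no common direction between these classes. With and without SMC1 it was 38.5% (31.5 to 45.9%) and 34.5% (33.3 to 35.6%) in the lowest rank quartile, and 59.0% (54.1 to 63.8%) and 51.5% (50.3 to 52.8%) in the second. In the third it was 84.7% (82.0 to 87.1%) and 84.5% (83.6 to 85.5%). In the highest it was lower with SMC1, at 96.6% (95.2 to 97.7%) against 98.3% (97.9 to 98.6%).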
